A study of Mus musculus with 12 samples.

Results

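The 30 genes described here code for enzymes, carriers and regulators of fatty acid oxidation and ketone body metabolism. They were picked by symbol from a list of these steps, drawn up with earlier results of these data known, and all 30 were found among the 36292 human gene symbols of the deposited count table. Hep3B, a line from a human liver cancer (hepatocellular carcinoma), was grown under the skin of female BALB/c nu/nu mice injected at about 8 weeks of age, and bulk tumor RNA was sequenced. Nude mice lack a working thymus but keep host vessels, fibroblasts and innate immune cells. The comparison was between 4 groups of 3 tumors, each from its own mouse. The combination group received H3B-6527 together with lenvatinib, and the labels give no separate doses for it. The H3B-6527 group received 300 mg/kg of this selective inhibitor of the fibroblast growth factor receptor FGFR4. The lenvatinib group received 10 mg/kg of this multikinase inhibitor of VEGF and FGF receptors. The vehicle group received the carrier alone. Dosing was oral and daily, began when tumors averaged close to 500 mm3, and ended with tumor collection 8 h after dose 4. All groups thus share 1 cell line, 1 host strain and 1 time point, and each library came from a fragment of 50 to 100 mg.

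Fatty acids are activated to acyl-CoA by ACSL enzymes, and long chains then enter mitochondria through the carnitine shuttle of CPT1, the carrier SLC25A20 and CPT2. Inside, chain-length-specific acyl-CoA dehydrogenases, the trifunctional protein and thiolases shorten the chain, and electron transfer flavoprotein carries the electrons to the respiratory chain. Peroxisomes oxidise very long, branched and bile acid side chains with their own enzymes. Hepatocytes turn surplus acetyl-CoA into ketone bodies, with ACAT1 and BDH1 among the enzymes, but normally lack OXCT1, the enzyme that other tissues use to burn them. The nuclear receptor PPARA drives many of these genes in liver.

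Library totals ran from 23.8 to 40.9 M counts, where M stands for mega. Levels are given as CPM, counts per M of a library size that edgeR had corrected with its between-library TMM factor. They are not scaled to transcript length, so they are compared between tumors and not between genes. Fold changes are log2 values ± SE from edgeR's quasi-likelihood test, with Benjamini-Hochberg adjustment over 15836 tested genes and a threshold of 0.05. All 11 Hep3B hepatocellular markers averaged 1 CPM or more, although FGF19 was at 0.694 CPM in H3B-6527 tumor 1, and their summed level was 142000 to 157000 CPM with the combination, 122000 to 166000 with H3B-6527, 82900 to 102000 with lenvatinib and 81700 to 89000 with vehicle. Albumin (ALB) led that list. In bulk tumors, fewer cells of a type and less RNA per cell cannot be told apart. All 30 genes passed the filter on low counts. ACADL passed it only through the combination and H3B-6527 tumors, so it had to differ between groups and its count carries no weight as support. It stays in the counts, medians and ranges of members below.

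Under H3B-6527 the oxidation program rose along its whole length. Against vehicle, 27 of the 30 genes were higher, 1 was lower and 2 did not pass the test, with a median log2 change of 0.65. Across all genes tested, 49.4% were called, 25.2% higher and 24.3% lower, and the median was 0.01. The 6 peroxisomal genes, the 10 genes of mitochondrial beta-oxidation, the 3 of electron transfer, the 5 of activation and carnitine shuttle, and BDH1 were all called higher. Of the 5 regulators and lipid-handling genes, CREB3L3 and ANGPTL4 were higher, PDK4 was lower, and PLIN2 and FABP1 did not pass. For 26 of the 30 genes, all 3 H3B-6527 tumors lay on one side of all 3 vehicle tumors. The share of all genes without overlap was not counted, so this number describes the members only. ACADL is among the 27 and the 26, without weight as support.

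The combination gave the same count of higher genes. Against vehicle, 27 of the 30 were higher and none was lower (edgeR, adjusted p under 0.05), with a median of 0.77. The background was 50.1% of all genes called, 24.8% higher and 25.3% lower. PDK4 was lower by DESeq2. An unadjusted p under 0.05 by edgeR was found for 29 members, against 56.0% of all genes. For 29 genes the combination and vehicle tumors did not overlap, PLIN2 being the exception. At least 2-fold above vehicle were 12 genes with the combination and 10 with H3B-6527, ACSL1 and BDH1 being the added ones. The share over all genes was not taken for the counts without overlap or at 2-fold, and ACADL is in each. Lenvatinib and vehicle tumors did not overlap for 13 of the 30 genes, where the edgeR fit of all 12 libraries called none. The combination and H3B-6527 comparisons use the same vehicle tumors.

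Lenvatinib alone left no gene past the threshold in the edgeR fit of all 12 libraries. No member, and 0% of all genes, was called in either direction against vehicle in that fit, although DESeq2 called 2 members. An edgeR fit of only the lenvatinib and vehicle tumors called 101 genes higher and 88 lower, with 1 member (ECI2) among the higher. In the fit of all 12 libraries, an unadjusted p under 0.05 was found for 6 members, against 10.7% of all genes. All 30 fitted changes were above 0, against 51.5% of all genes, but the median was only 0.22.

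**Figure D1:**
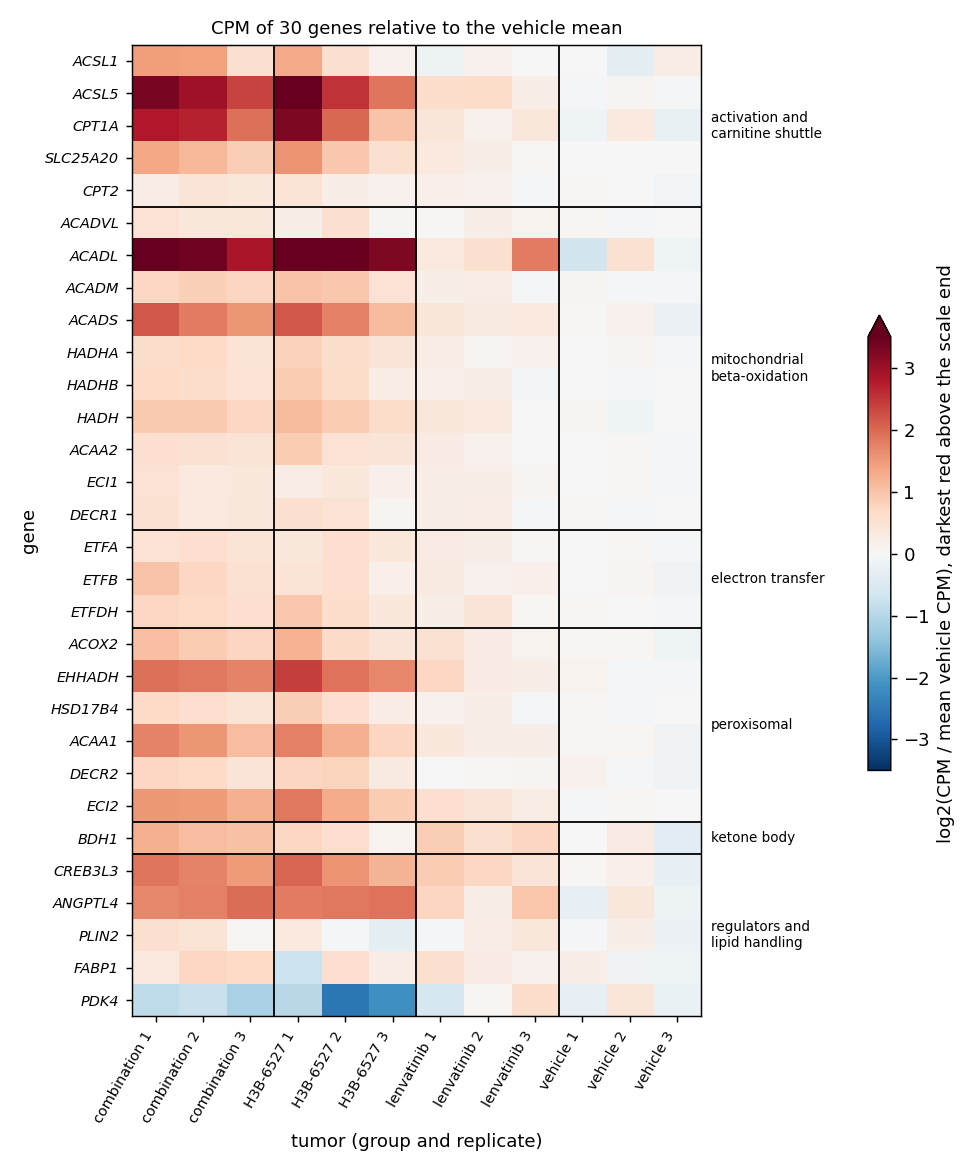
Level of each of the 30 genes (rows, by step) in each of the 12 tumors (columns) as log2 of CPM over the mean vehicle CPM, red for higher and blue for lower. The combination and H3B-6527 columns are red for nearly every gene except PLIN2, FABP1 and PDK4, and H3B-6527 tumor 3 is paler than H3B-6527 tumor 1.

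Large gains sat at the entry to the pathway. CPT1A, the rate-limiting carnitine palmitoyltransferase of the outer mitochondrial membrane, had 219, 204 and 120 CPM in combination tumors, 305, 127 and 63.6 CPM in H3B-6527 tumors, 42.1, 35.3 and 41.7 CPM in lenvatinib tumors and 28.6, 39.7 and 26.6 CPM in vehicle tumors. Every combination and H3B-6527 tumor exceeded every lenvatinib and vehicle tumor, but the H3B-6527 tumors spanned a 4.80-fold range. The change against vehicle was 2.52 ± 0.48 with the combination (adjusted p = 0.00136, edgeR) and 2.39 ± 0.47 with H3B-6527 (adjusted p = 0.00189, edgeR).

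ACSL5, a long-chain acyl-CoA synthetase, followed the same order of tumors. Its levels were 134, 103 and 68.1 CPM with the combination, 213, 77.0 and 48.7 CPM with H3B-6527, 20.3, 20.6 and 15.6 CPM with lenvatinib and 12.8, 14.2 and 12.9 CPM with vehicle. The change was 2.93 ± 0.48 with the combination (adjusted p = 0.000522, edgeR) and 3.09 ± 0.48 with H3B-6527 (adjusted p = 0.000394, edgeR). Lenvatinib tumors also lay above all vehicle tumors for this gene, but by 0.50 ± 0.46, which did not pass. Without H3B-6527 tumor 1, the H3B-6527 change was 2.24 for ACSL5 and 1.59 for CPT1A, and both calls remained.

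SLC25A20, the carnitine-acylcarnitine carrier of the inner membrane, had 98.6, 86.7 and 71.0 CPM with the combination, 116, 74.9 and 57.3 CPM with H3B-6527, 49.5, 44.8 and 39.9 CPM with lenvatinib and 39.0, 38.5 and 39.3 CPM with vehicle. The vehicle tumors were nearly equal and every other tumor lay above them. It rose by 1.13 ± 0.21 with the combination and 1.09 ± 0.21 with H3B-6527. CPT2, the inner-membrane palmitoyltransferase that releases acyl-CoA in the matrix, rose far less, by 0.37 ± 0.10 with the combination and 0.29 ± 0.10 with H3B-6527.

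ACSL1, the main liver long-chain acyl-CoA synthetase in mice, had 12.9, 12.5 and 6.85 CPM with the combination, 11.7, 6.88 and 5.19 CPM with H3B-6527, 4.11, 5.19 and 4.72 CPM with lenvatinib and 4.58, 3.77 and 5.59 CPM with vehicle. The lowest H3B-6527 tumor fell inside the vehicle range, while no combination tumor did. Its change was 1.20 ± 0.30 with the combination (adjusted p = 0.00545, edgeR) and 0.78 ± 0.30 with H3B-6527 (adjusted p = 0.0474, edgeR). The H3B-6527 call held under only 3 of 18 alternative settings. It was lost on leaving out any single library except H3B-6527 replicate 3 or combination replicate 3, at 0.39 without H3B-6527 replicate 1 and 0.93 without vehicle replicate 3.

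**Figure D2:**
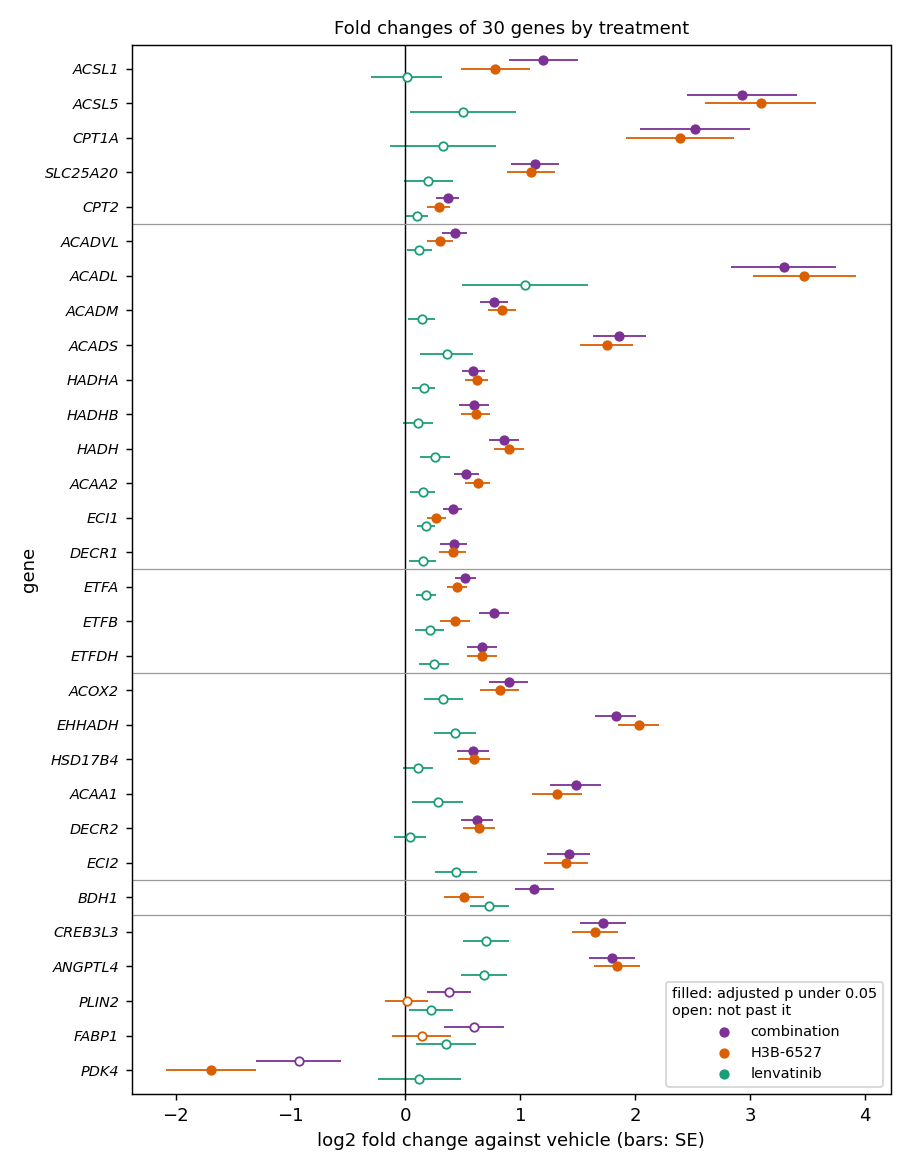
Fold change of each gene against vehicle (x axis, log2) for the combination, H3B-6527 and lenvatinib, with SE as bars and filled points for an adjusted p under 0.05. Combination and H3B-6527 points lie close together for most genes, lenvatinib points are open and lie near 0, and PDK4 stands to the left for both the combination and H3B-6527.

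In the mitochondrial matrix, all 10 beta-oxidation genes were higher with the combination and with H3B-6527, but by unequal amounts. ACADL is among the 10 without weight as support. Median log2 changes were 0.60 with the combination, 0.62 with H3B-6527 and 0.16 with lenvatinib. The acyl-CoA dehydrogenases, which start each round and differ in the chain length they accept, spread most. ACADS, the short-chain dehydrogenase, had 112, 87.9 and 72.2 CPM with the combination, 112, 84.8 and 53.7 CPM with H3B-6527, 33.7, 30.7 and 31.7 CPM with lenvatinib and 25.8, 27.5 and 21.4 CPM with vehicle. Its lowest H3B-6527 tumor still lay well above every lenvatinib and vehicle tumor. It rose by 1.86 ± 0.23 with the combination (adjusted p = 6.15e-05, edgeR) and by 1.75 ± 0.23 with H3B-6527 (adjusted p = 9.52e-05, edgeR).

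ACADM, the medium-chain dehydrogenase, had 117, 126 and 121 CPM with the combination, 143, 137 and 102 CPM with H3B-6527, 82.6, 84.6 and 67.7 CPM with lenvatinib and 76.2, 68.2 and 69.3 CPM with vehicle. The combination tumors lay within a narrow band and did not overlap with lenvatinib or vehicle. The change was 0.77 ± 0.12 with the combination and 0.84 ± 0.12 with H3B-6527. ACADVL, the very-long-chain dehydrogenase that acts first on long chains, had 877, 817 and 812 CPM with the combination, 719, 914 and 656 CPM with H3B-6527, 630, 712 and 676 CPM with lenvatinib and 652, 596 and 607 CPM with vehicle. Its gain was small, 0.43 ± 0.11 with the combination and 0.30 ± 0.11 with H3B-6527, and the lowest H3B-6527 tumor barely cleared the vehicle range.

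ACADL, the long-chain dehydrogenase with a small role in human liver, was near the limit of detection. It had 1.14, 0.932 and 0.635 CPM with the combination, 1.16, 1.03 and 0.837 CPM with H3B-6527, 0.110, 0.128 and 0.308 CPM with lenvatinib and 0.0558, 0.127 and 0.0788 CPM with vehicle. Summed over 3 tumors these were 88 counts with the combination, 103 with H3B-6527, 20 with lenvatinib and 10 with vehicle. The ratio of H3B-6527 to vehicle was 10.7 with an exact 95% interval of 5.59 to 23.0, and that of the combination to vehicle was 9.01 with an interval of 4.68 to 19.4. These intervals cover counting error only, and the filter on low counts had already fixed that ACADL differed between groups.

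The later steps of each round moved together and moderately. HADHA, the alpha subunit of the trifunctional protein, had 254, 267 and 230 CPM with the combination, 288, 254 and 227 CPM with H3B-6527, 198, 176 and 185 CPM with lenvatinib and 165, 176 and 158 CPM with vehicle. Its combination and H3B-6527 tumors all lay above the others. HADHA rose by 0.59 ± 0.10 with the combination and 0.62 ± 0.10 with H3B-6527, and its partner subunit HADHB by 0.60 ± 0.13 and 0.61 ± 0.13 in the same comparisons. HADH, the short-chain hydroxyacyl-CoA dehydrogenase, rose by 0.86 ± 0.13 with the combination and 0.90 ± 0.13 with H3B-6527. ACAA2, a mitochondrial thiolase, rose by 0.53 ± 0.11 with the combination and 0.63 ± 0.11 with H3B-6527. The auxiliary enzymes for unsaturated chains gained less. DECR1, the mitochondrial dienoyl-CoA reductase, rose by 0.42 ± 0.12 and the isomerase ECI1 by 0.41 ± 0.08 with the combination, against 0.41 ± 0.12 for DECR1 and 0.27 ± 0.08 for ECI1 with H3B-6527.

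All 3 genes of electron transfer from the dehydrogenases were also higher with the combination and with H3B-6527. ETFB, a subunit of electron transfer flavoprotein, had 628, 526 and 458 CPM with the combination, 443, 474 and 355 CPM with H3B-6527, 391, 352 and 355 CPM with lenvatinib and 319, 340 and 289 CPM with vehicle. Combination tumors exceeded all lenvatinib and vehicle tumors, while the lowest H3B-6527 tumor was at the lenvatinib level. ETFB rose by 0.77 ± 0.13 with the combination and 0.43 ± 0.13 with H3B-6527. Its partner subunit ETFA rose by 0.52 ± 0.09 with the combination and 0.45 ± 0.09 with H3B-6527, and ETFDH, which passes the electrons to ubiquinone, by 0.67 ± 0.13 in both comparisons.

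Several of the smaller gains with H3B-6527 depended on single libraries and on the scale. The ACADVL call was lost on leaving out any 1 library except H3B-6527 replicates 1 and 3, with a lowest value of 0.15 (without H3B-6527 replicate 2) and adjusted p of 0.0517 to 0.218. CPT2 lost its call without vehicle replicate 2 (0.30), vehicle replicate 3 (0.24) or H3B-6527 replicate 1 (0.19). ECI1 lost it without vehicle replicate 3 (0.25) or H3B-6527 replicate 2 (0.21), and ETFB without vehicle replicate 3 (0.36) or H3B-6527 replicate 2 (0.34). With library totals as the scale, ACADVL (0.18), CPT2 (0.17), ECI1 (0.15) and ETFB (0.30) all lost the H3B-6527 call. ACADVL (0.30) and CPT2 (0.29) also lost it in the fit of only the groups compared. With the combination, no call against vehicle on these genes was lost on leaving out a library. CPT2 lost its combination call with library totals (0.23).

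**Figure D3:**
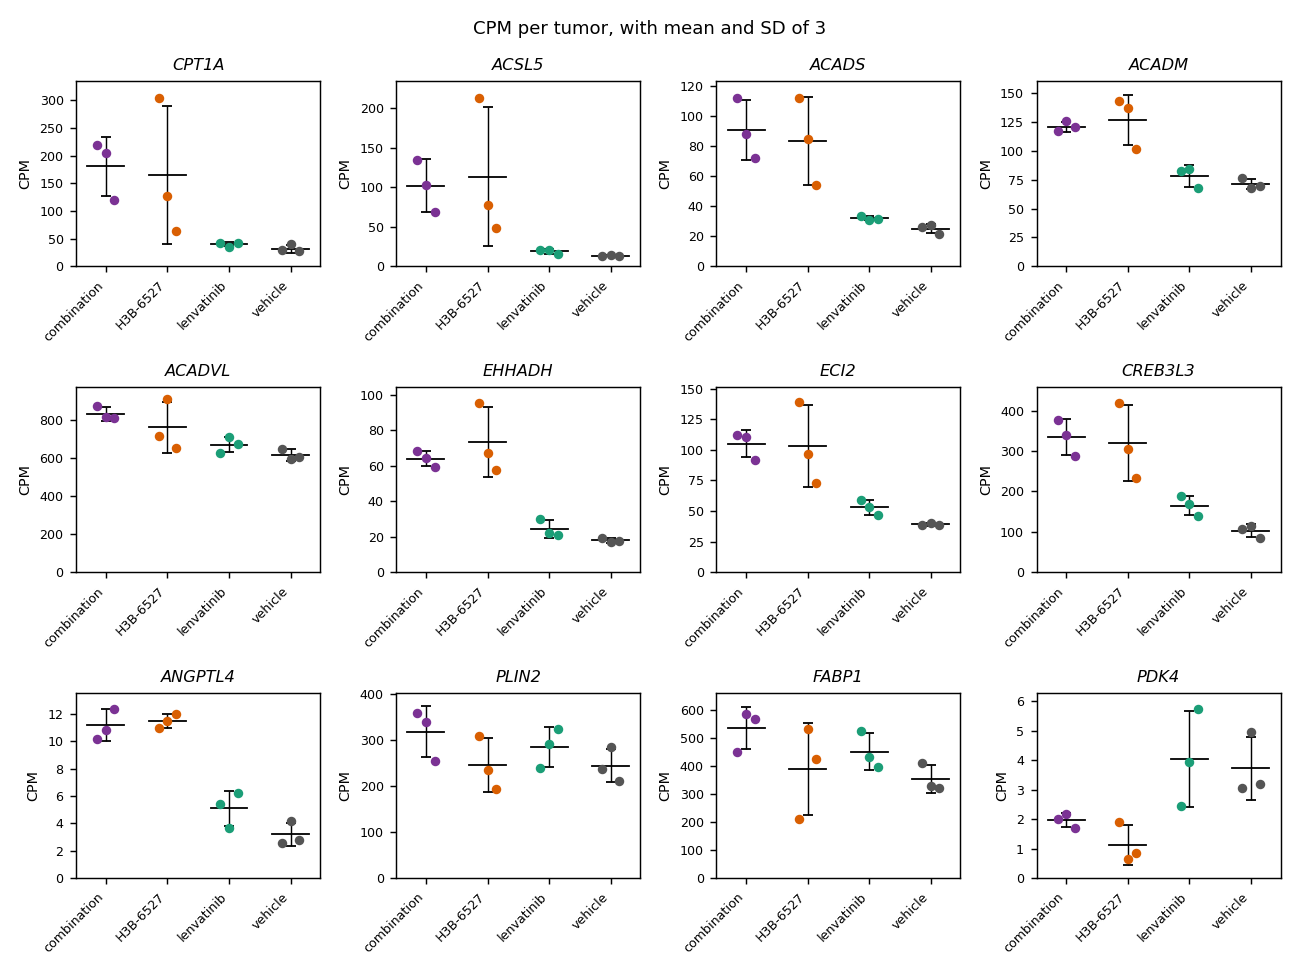
CPM of 12 of the genes in each tumor (points), with the group mean (line) and SD of 3 (bars), each axis starting at 0. CPT1A, ACSL5 and ACADS show a wide spread within the H3B-6527 tumors, ANGPTL4 shows hardly any, and the groups overlap for PLIN2.

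All 6 peroxisomal genes were higher than vehicle with the combination and with H3B-6527, and none of the 6 lost a call under any of the 18 alternatives in either comparison. EHHADH, the peroxisomal bifunctional enzyme that hydrates and dehydrogenates straight-chain acyl-CoA, had 68.2, 64.2 and 59.5 CPM with the combination, 95.6, 67.4 and 57.8 CPM with H3B-6527, 30, 21.9 and 20.8 CPM with lenvatinib and 19.5, 17.2 and 17.4 CPM with vehicle. Every combination and H3B-6527 tumor had far more EHHADH than any other, and lenvatinib tumors lay just above vehicle. The change was 1.83 ± 0.18 with the combination (adjusted p = 9.46e-06, edgeR) and 2.03 ± 0.18 with H3B-6527 (adjusted p = 4.43e-06, edgeR).

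ACAA1, the peroxisomal thiolase, had 164, 145 and 105 CPM with the combination, 169, 118 and 84.0 CPM with H3B-6527, 64.5, 58.4 and 56.7 CPM with lenvatinib and 50.9, 52.0 and 45.5 CPM with vehicle. It rose by 1.48 ± 0.22 with the combination and 1.32 ± 0.22 with H3B-6527. ECI2, an isomerase for unsaturated chains, had 112, 110 and 91.8 CPM with the combination, 139, 96.8 and 72.8 CPM with H3B-6527, 58.8, 53.2 and 46.9 CPM with lenvatinib and 38.2, 40.1 and 38.6 CPM with vehicle. For both genes the lenvatinib tumors lay between the H3B-6527 and the vehicle tumors and overlapped with neither. ECI2 rose by 1.42 ± 0.19 with the combination and 1.40 ± 0.19 with H3B-6527.

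The other 3 peroxisomal enzymes rose less. ACOX2, the oxidase for branched chains and bile acid intermediates, rose by 0.90 ± 0.17 with the combination and 0.82 ± 0.17 with H3B-6527. HSD17B4, the bifunctional enzyme for branched and very long chains, had 595, 544 and 510 CPM with the combination, 667, 550 and 435 CPM with H3B-6527, 406, 422 and 347 CPM with lenvatinib and 378, 352 and 362 CPM with vehicle. It rose by 0.59 ± 0.14 with the combination and 0.60 ± 0.14 with H3B-6527. DECR2, the peroxisomal dienoyl-CoA reductase, rose by 0.62 ± 0.14 with the combination and 0.64 ± 0.14 with H3B-6527.

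Within the 30, the peroxisomal genes had a larger median change than the mitochondrial ones, as a description without a test. Among other genes of these pathways the order was the reverse, with medians of 0.42 for 19 peroxisomal and 0.70 for 28 mitochondrial genes with the combination, and 0.50 and 0.64 with H3B-6527. The 16 mitochondrial genes (CPT1A, CPT2, SLC25A20, beta-oxidation and electron transfer) were all called higher in both comparisons, with a median log2 change of 0.64 with the combination and 0.62 with H3B-6527. The 6 peroxisomal genes had medians of 1.16 with the combination and 1.07 with H3B-6527. The 5 genes of activation and carnitine shuttle, taken alone, had similar medians, 1.21 with the combination and 1.09 with H3B-6527. With lenvatinib the medians were 0.18 for the mitochondrial and 0.30 for the peroxisomal genes. The order was seen tumor by tumor. The peroxisomal median over the vehicle mean was 1.29, 1.18 and 0.92 in combination tumors, 1.49, 1.01 and 0.60 in H3B-6527 tumors, 0.46, 0.26 and 0.16 in lenvatinib tumors and 0.06, 0 and −0.09 in vehicle tumors. The mitochondrial median was 0.70, 0.69 and 0.52 in combination tumors, 0.88, 0.61 and 0.41 in H3B-6527 tumors, 0.24, 0.20 and 0.06 in lenvatinib tumors and 0.02, 0.03 and −0.04 in vehicle tumors. The peroxisomal value was the higher one in each of the 9 treated tumors. Both classes were wide inside with the combination. Mitochondrial genes ran from 0.37 (CPT2) to 2.52 (CPT1A), with ACADL apart at 3.29. Peroxisomal genes ran from 0.59 (HSD17B4) to 1.83 (EHHADH).

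**Figure D4:**
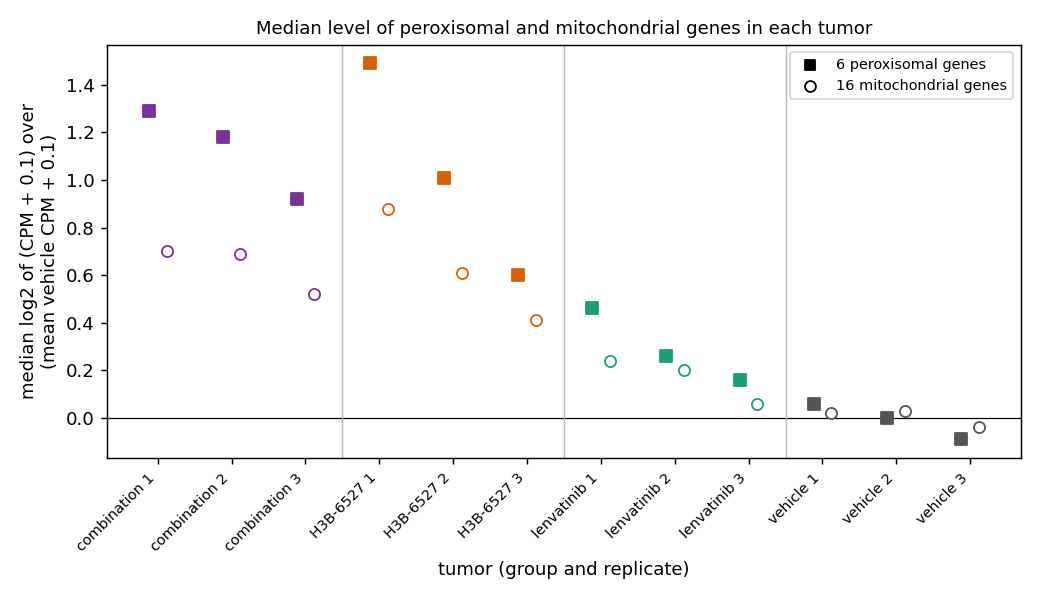
Median level of the 6 peroxisomal genes (squares) and the 16 mitochondrial genes (circles) in each tumor, as log2 of CPM plus 0.1 over the mean vehicle CPM plus 0.1. The square lies above the circle in all combination, H3B-6527 and lenvatinib tumors, and the H3B-6527 tumors lie between 0.60 and 1.49 for the peroxisomal genes.

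The H3B-6527 tumors differed from each other in step across the genes. Tumor 1 was the highest of the 3 for 23 of the 30 genes and tumor 3 the lowest for 27. Tumor 3 also had the smallest library, 23.8 M counts, and the least ALB, 6.06% of counts against 8.83% in tumor 1 and 8.00% in tumor 2, where vehicle tumors had 3.62 to 3.80%. Whether library size or the share of Hep3B RNA had a part in the order of these tumors was not tested. Without tumor 1, all 6 peroxisomal and all 10 beta-oxidation genes were still called higher against vehicle, and 3 of the 5 shuttle genes.

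BDH1, the mitochondrial enzyme that interconverts acetoacetate and 3-hydroxybutyrate, is the ketone body gene among the 30, and it was higher with the combination and with H3B-6527. Its pattern was unlike that of the oxidation enzymes, since lenvatinib tumors were as high as H3B-6527 tumors. BDH1 had 36.8, 32.5 and 31.8 CPM with the combination, 25.7, 23.4 and 16.9 CPM with H3B-6527, 28.1, 22.7 and 26.3 CPM with lenvatinib and 15.5, 18.9 and 12.1 CPM with vehicle. Every combination tumor lay above every other tumor, lenvatinib tumors lay above vehicle, and H3B-6527 and vehicle overlapped. The change against vehicle was 1.12 ± 0.17 with the combination (adjusted p = 0.000181, edgeR), 0.51 ± 0.17 with H3B-6527 (adjusted p = 0.0253, edgeR) and 0.73 ± 0.17 with lenvatinib (adjusted p = 0.150, edgeR; 0.0117 by DESeq2). The H3B-6527 call was lost on leaving out replicate 1 (0.51) or 3 (0.36) of vehicle, or replicate 1 (0.39) or 2 (0.46) of H3B-6527. It was also lost with library totals as the scale (0.38) and in the fit of only the groups compared (0.51).

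Other genes of ketone synthesis and use were taken as a list of 9, of which 8 were tested. ACAT1, the acetoacetyl-CoA thiolase, had 127, 99.3 and 86.1 CPM with the combination, 160, 109 and 72.4 CPM with H3B-6527, 61.5, 58.1 and 48.3 CPM with lenvatinib and 52.6, 48.4 and 48.2 CPM with vehicle. Every combination and H3B-6527 tumor exceeded every lenvatinib and vehicle tumor, and lenvatinib and vehicle overlapped. ACAT1 rose by 1.06 ± 0.23 with the combination (adjusted p = 0.00273, edgeR) and 1.20 ± 0.23 with H3B-6527 (adjusted p = 0.00137, edgeR). BDH2, a cytosolic dehydrogenase, rose by 1.16 ± 0.21 with the combination and 1.17 ± 0.21 with H3B-6527.

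OXCT1 and 3 monocarboxylate transporters were lower with the combination and with H3B-6527. OXCT1, the transferase for burning ketone bodies, had 0.411, 0.967 and 1.32 CPM with the combination, 0.694, 0.596 and 1.26 CPM with H3B-6527, 1.89, 2.15 and 2.44 CPM with lenvatinib and 2.01, 2.78 and 2.23 CPM with vehicle. It was low in all tumors, and lower in every combination and H3B-6527 tumor than in any vehicle tumor, by −1.36 ± 0.35 with the combination (adjusted p = 0.00581, edgeR) and −1.51 ± 0.36 with H3B-6527 (adjusted p = 0.00364, edgeR). SLC16A6, a monocarboxylate transporter needed for ketone body export from zebrafish hepatocytes, averaged 2.49 ± 0.42 CPM with the combination, 2.86 ± 0.57 with H3B-6527, 6.70 ± 1.07 with lenvatinib and 10.9 ± 1.16 with vehicle (SD, n = 3 each). SLC16A6 changed by −2.13 ± 0.18 with the combination and −1.94 ± 0.18 with H3B-6527.

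SLC16A1, which carries lactate and ketone bodies, changed by −0.62 ± 0.19 with the combination and −0.52 ± 0.19 with H3B-6527, and its relative SLC16A7 by −0.47 ± 0.16 and −0.44 ± 0.16 in the same comparisons. These smaller falls were not stable: with H3B-6527 both lost their call on leaving out replicate 1 or 3 of vehicle, or replicate 1 or 2 of H3B-6527 (SLC16A1 −0.30 and SLC16A7 −0.31 without H3B-6527 replicate 1). SLC16A1 also lost it without lenvatinib replicate 1 (−0.52) and SLC16A7 without combination replicate 2 (−0.44). With the combination both lost it without vehicle replicate 3 or combination replicate 1, and SLC16A7 also without vehicle replicate 1 (−0.47). In all, 3 of the 8 tested genes of the list were higher and 4 lower with the combination, 2 were higher and 4 lower with H3B-6527, and none was called with lenvatinib by edgeR, with medians of −0.35, −0.35 and 0.02. Of all genes, 24.8% were higher and 25.3% lower with the combination, and 25.2% and 24.3% with H3B-6527. With lenvatinib 1 gene of the list had an unadjusted p under 0.05, against 10.7% of all genes. SLC16A6 was called lower with lenvatinib by DESeq2 (−0.71) and in the fit of only the groups compared (−0.70). AACS, a cytosolic ligase that uses acetoacetate for lipid synthesis, was the third higher gene with the combination (0.31 ± 0.09), a call lost without vehicle replicate 2 (0.26), vehicle replicate 3 (0.28) or combination replicate 1 (0.26). HMGCLL1 had no counts, and OXCT2 did not pass.

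**Figure D5:**
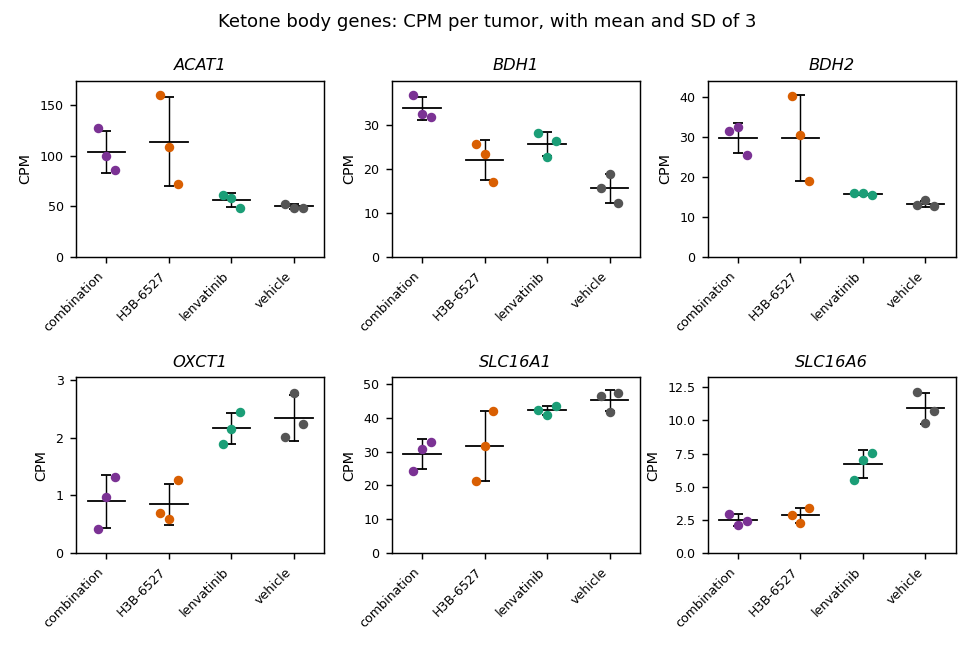
CPM of 6 ketone body genes in each tumor (points), with group mean (line) and SD of 3 (bars). ACAT1 and BDH2 are higher in combination and H3B-6527 tumors, OXCT1, SLC16A1 and SLC16A6 are lower there, and BDH1 is highest with the combination.

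The regulators and lipid-handling genes did not move as a block. CREB3L3, a liver transcription factor that acts with PPARA on fasting genes, had 377, 340 and 288 CPM with the combination, 420, 306 and 233 CPM with H3B-6527, 188, 168 and 139 CPM with lenvatinib and 106, 115 and 84.1 CPM with vehicle. The combination and H3B-6527 tumors lay above lenvatinib, and lenvatinib above vehicle, without overlap. It rose by 1.72 ± 0.20 with the combination (adjusted p = 3.63e-05, edgeR) and 1.65 ± 0.20 with H3B-6527 (adjusted p = 4.76e-05, edgeR). ANGPTL4, a secreted lipoprotein lipase inhibitor and PPAR target, had 10.2, 10.8 and 12.4 CPM with the combination, 11, 11.5 and 12 CPM with H3B-6527, 5.39, 3.66 and 6.23 CPM with lenvatinib and 2.60, 4.18 and 2.81 CPM with vehicle. The H3B-6527 tumors were close together here, unlike for most of the 30 genes. ANGPTL4 rose by 1.80 ± 0.20 with the combination and 1.84 ± 0.20 with H3B-6527.

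PDK4, the kinase that shuts pyruvate dehydrogenase when fat is burned, ran against the rest. It had 2.02, 2.18 and 1.70 CPM with the combination, 1.90, 0.650 and 0.837 CPM with H3B-6527, 2.46, 3.94 and 5.72 CPM with lenvatinib and 3.04, 4.97 and 3.18 CPM with vehicle. All combination and H3B-6527 tumors lay below all lenvatinib and vehicle tumors. The change was −0.93 ± 0.37 with the combination, which did not pass (adjusted p = 0.0552, edgeR), and −1.69 ± 0.39 with H3B-6527 (adjusted p = 0.00356, edgeR). Without H3B-6527 replicate 1 the H3B-6527 value was −2.35. The combination value of −0.93 passed when H3B-6527 replicate 1 or 2, or lenvatinib replicate 1 or 3, was left out, with a lowest adjusted p of 0.0149 among these.

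PLIN2, the lipid droplet coat protein of hepatocytes, had 359, 341 and 255 CPM with the combination, 310, 235 and 194 CPM with H3B-6527, 239, 293 and 324 CPM with lenvatinib and 238, 285 and 212 CPM with vehicle. The groups overlapped, and the fitted changes of 0.38 ± 0.19 with the combination and 0.01 ± 0.19 with H3B-6527 did not pass. FABP1, the liver fatty acid binding protein, had 451, 586 and 570 CPM with the combination, 212, 533 and 425 CPM with H3B-6527, 524, 433 and 395 CPM with lenvatinib and 412, 328 and 320 CPM with vehicle. H3B-6527 tumor 1, the highest tumor for most other genes, was the lowest of all 12 for FABP1. Its changes of 0.60 ± 0.26 with the combination (adjusted p = 0.0774, edgeR) and 0.14 ± 0.26 with H3B-6527 (adjusted p = 0.684, edgeR) did not pass. FABP1 passed with H3B-6527 without H3B-6527 replicate 1 (0.44), and with the combination by DESeq2 (0.60), in the fit of only the groups compared (0.61) and without H3B-6527 replicate 1 or 2 (0.60 in both cases). PLIN2 passed with the combination in the fit of only the groups compared (0.39) and without combination replicate 3 (0.52).

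Adding lenvatinib to H3B-6527 changed no member past the threshold. In combination minus H3B-6527, 0 of 30 genes and 0.0126% of all genes were called by edgeR, and no member was called by any of the 18 alternatives, DESeq2 and limma-voom included. The median was 0.05. An unadjusted p under 0.05 by edgeR was found for 9.42% of all genes and for 2 members. These were BDH1 at 0.61 ± 0.17, where all 3 combination tumors lay above all 3 H3B-6527 tumors (adjusted p = 0.344, edgeR), and ETFB at 0.34 ± 0.13 (adjusted p = 0.446, edgeR). Standard errors of this difference ran from 0.08 to 0.45 over the 30 genes.

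Adding H3B-6527 to lenvatinib raised most of the pathway. In combination minus lenvatinib, 25 of 30 genes were higher and 1 was lower, against 40.0% of all genes called, 19.1% higher and 20.9% lower, with a median of 0.56. All 5 shuttle genes, 9 of 10 beta-oxidation genes, 3 of 3 electron transfer genes and 6 of 6 peroxisomal genes were higher. DECR1, BDH1, PLIN2 and FABP1 did not pass. BDH1 differed by 0.39 ± 0.17 (adjusted p = 0.0819, edgeR, but past the threshold at 0.40 without H3B-6527 replicate 3), and all combination tumors lay above all lenvatinib tumors. PDK4 was lower by −1.05 ± 0.37, a call that was lost without vehicle replicate 1 or 3, lenvatinib replicate 2 or 3, or any combination replicate, at −0.70 without lenvatinib replicate 3. The count of higher genes ran from 17 to 27 when single libraries were left out, and was 17 without lenvatinib replicate 3, when CPT2, ACADVL, HADHB, ACAA2, ECI1, ETFDH, ACOX2 and HSD17B4 no longer passed.

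Between the single agents, H3B-6527 tumors had more of 20 genes and less of 1, PDK4, than lenvatinib tumors, against 41.1% of all genes called, 20.5% higher and 20.6% lower, with a median of 0.50. All 6 peroxisomal genes and 7 of 10 beta-oxidation genes were among the 20. BDH1 (−0.22 ± 0.17), PLIN2 (−0.21 ± 0.19) and FABP1 (−0.21 ± 0.26) had fitted changes below 0 that did not pass. Leaving out single libraries gave 16 to 24 higher genes, and the other settings 15 to 21. In the fit of only the groups compared, HADHB, ETFA, ETFDH, ACOX2 and HSD17B4 no longer passed. ACOX2 and ETFDH had overlapping groups. The ACOX2 call held under 9 of 18 alternative settings and was lost at 0.24 without H3B-6527 replicate 1. Whether the log2 effects of both agents add up was also tested. By edgeR, 0 of 30 members and 0% of all genes departed from addition. By DESeq2, 13 genes were above and 5 below addition. An unadjusted p under 0.05 by edgeR was found for 5.39% of all genes and for 3 members. These 3 were EHHADH at −0.63 ± 0.25, CREB3L3 at −0.63 ± 0.28 and ANGPTL4 at −0.71 ± 0.28, each with a smaller combined change than the sum (lowest adjusted p = 0.871, edgeR).

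Genes of the same pathways outside the 30 were taken as lists. Beside their counts of an unadjusted p under 0.05 with lenvatinib stands the share over all genes, 10.7%. Beside their calls against vehicle, here and for the lists below, stand the shares called over all genes. These were 24.8% higher and 25.3% lower with the combination, and 25.2% higher and 24.3% lower with H3B-6527. Of 28 other tested mitochondrial oxidation genes, 22 were higher and 1 lower with the combination, 21 were higher and 2 lower with H3B-6527, and none was called with lenvatinib by edgeR, with medians of 0.70, 0.64 and 0.19 in that order. With lenvatinib 6 had an unadjusted p under 0.05, and MUT was called higher by DESeq2 (0.41), in the fit of only the groups compared (0.42) and without H3B-6527 replicate 1 (0.42). ACAD11, a dehydrogenase, rose by 1.69 ± 0.19 with the combination and 1.64 ± 0.19 with H3B-6527. ACACB, the acetyl-CoA carboxylase whose product malonyl-CoA inhibits CPT1, rose by 1.38 ± 0.16 with the combination and 1.53 ± 0.16 with H3B-6527. MUT, the methylmalonyl-CoA mutase for odd chains, rose by 0.91 ± 0.08 with the combination and 0.84 ± 0.08 with H3B-6527. The second lower gene with H3B-6527 was the synthetase ACSL4 (−0.30 ± 0.10), a call lost without replicate 1 (−0.28) or 3 (−0.30) of vehicle or replicate 2 (−0.26) of H3B-6527. The synthetases ACSL3 and ACSL5 moved in opposite directions. ACSL3, which serves lipid droplet and phospholipid synthesis, averaged 135 ± 13.6 CPM with the combination, 92.7 ± 16.3 with H3B-6527, 329 ± 62.6 with lenvatinib and 329 ± 16 with vehicle (SD, n = 3 each). It fell by 1.29 ± 0.14 on the log2 scale with the combination and by 1.83 ± 0.15 with H3B-6527 (adjusted p = 1.71e-05 with the combination and 1.82e-06 with H3B-6527, edgeR).

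Of 19 other tested genes of peroxisomal metabolism, 11 were higher and 2 lower with the combination, 11 were higher and 1 lower with H3B-6527, and none was called with lenvatinib by edgeR, DESeq2 or any other setting (4 had an unadjusted p under 0.05 by edgeR), with medians of 0.42, 0.50 and 0.13. CROT, which makes carnitine esters for export from peroxisomes, rose by 1.21 ± 0.11 with the combination and 1.41 ± 0.12 with H3B-6527. The racemase AMACR rose by 1.10 ± 0.12 and 1.23 ± 0.12, the oxidase ACOX3 by 1.11 ± 0.13 and 1.17 ± 0.13, and the thiolase and sterol carrier SCP2 by 1.08 ± 0.21 and 1.17 ± 0.21, each with the combination first. AGPS, an enzyme of ether lipid synthesis in the same organelle, was lower, by −0.97 ± 0.11 with the combination and −1.06 ± 0.11 with H3B-6527. The other lower gene with the combination was SLC25A17, a peroxisomal cofactor carrier, at −0.41 ± 0.11.

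Of 15 genes of peroxisome assembly, 8 were higher with the combination and 7 with H3B-6527, and none was lower in either. With lenvatinib none was called by edgeR, DESeq2 or any other setting, and 1 had an unadjusted p under 0.05 by edgeR. The medians were 0.22 with the combination, 0.19 with H3B-6527 and 0.03 with lenvatinib. PEX11A, a PPARA-responsive peroxisome division factor, rose by 1.43 ± 0.17 with the combination and 1.61 ± 0.17 with H3B-6527. The import factors PEX16, PEX19 and PEX3 rose by 0.65 ± 0.07, 0.38 ± 0.07 and 0.41 ± 0.10 with the combination and by 0.57 ± 0.07, 0.48 ± 0.07 and 0.64 ± 0.10 with H3B-6527.

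Among regulators outside the 30, PPARA itself was higher. It had 151, 151 and 125 CPM with the combination, 180, 129 and 96.1 CPM with H3B-6527, 74.8, 69.9 and 59.3 CPM with lenvatinib and 47.8, 49.9 and 39.1 CPM with vehicle. The groups did not overlap except for the combination with H3B-6527. PPARA rose by 1.64 ± 0.19 with the combination and 1.57 ± 0.19 with H3B-6527, and its partner receptor RXRA by 1.17 ± 0.09 and 1.08 ± 0.09 in the same comparisons. The coactivator PPARGC1A rose by 1.30 ± 0.17 with the combination and 0.82 ± 0.17 with H3B-6527. The fasting factor KLF15 rose by 1.32 ± 0.17 and 1.49 ± 0.17, PPARD by 0.82 ± 0.10 and 0.86 ± 0.10, and the hepatocyte factor HNF4A by 0.66 ± 0.09 and 0.64 ± 0.09, with the combination first. Of the 20 tested regulators, 11 were higher and 2 lower with the combination, 11 were higher and 3 lower with H3B-6527, and none was called with lenvatinib by edgeR, with medians of 0.38, 0.45 and 0.16. With lenvatinib 9 had an unadjusted p under 0.05, DESeq2 called HNF4A (0.34) and RXRA (0.34) higher, and the fit of only the groups compared called HNF4A (0.35) and PPARA (0.57) higher. The lower ones with the combination or H3B-6527 were the coactivator PPARGC1B (−2.70 ± 0.63 with the combination and −2.10 ± 0.59 with H3B-6527), the AMP-activated kinase subunit PRKAA1 (−0.34 ± 0.10 and −0.47 ± 0.10) and, with H3B-6527, PPARG (−0.41 ± 0.10). PPARGC1B reached the minimum of the filter on low counts in all 3 tumors only with vehicle. Its lower calls thus carry no weight as support, though it stays in the list's counts and medians. FGF21, a hepatic PPARA target hormone, had 3 counts over the combination tumors, 3 over H3B-6527, 5 over lenvatinib and 15 over vehicle, and was too low to test.

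In the list of lipid droplet genes and other PPAR targets, 11 of 21 were higher and 1 lower with the combination, 10 were higher and 2 lower with H3B-6527, and none was called with lenvatinib by edgeR, with medians of 0.48, 0.41 and 0.26. With lenvatinib 6 had an unadjusted p under 0.05, and 1, the thioesterase ACOT1, was called higher in the fit of only the groups compared. PLIN1, a lipid droplet coat protein best known from adipocytes, had 50.6, 41.2 and 32.8 CPM with the combination, 70.9, 41.6 and 27.8 CPM with H3B-6527, 7.12, 4.55 and 4.41 CPM with lenvatinib and 3.68, 3.49 and 3.18 CPM with vehicle. Combination and H3B-6527 tumors had several times the level of the others. PLIN1 rose by 3.59 ± 0.33 with the combination and 3.76 ± 0.33 with H3B-6527. PLIN5, which couples droplets to mitochondria, rose by 2.21 ± 0.18 with the combination and 2.04 ± 0.18 with H3B-6527, where PLIN2 did not pass. The fatty acid uptake protein CD36 rose by 1.85 ± 0.20 with the combination and 1.97 ± 0.21 with H3B-6527, and the droplet protein CIDEB by 1.42 ± 0.16 and 1.34 ± 0.16. The lower genes were the lipase LIPE (−1.29 ± 0.42 with the combination and −1.84 ± 0.45 with H3B-6527) and, with H3B-6527, the coat protein PLIN3 (−0.21 ± 0.07). LIPE reached the minimum of the filter on low counts in all 3 tumors only with lenvatinib and with vehicle. Its lower calls thus carry no weight as support, though it stays in the list's counts and medians. LIPE lost its combination call without replicate 1 (−1.25) or 3 (−1.26) of vehicle or replicate 2 (−0.98) of the combination, and PLIN3 lost its call without replicate 2 of vehicle (−0.16) or of H3B-6527 (−0.20). The fatty acid omega-hydroxylase CYP4A11 was higher with the combination (1.22 ± 0.34, adjusted p = 0.00989, edgeR) and did not pass with H3B-6527 (0.41 ± 0.36, but 0.95 and past the threshold without vehicle replicate 1).

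ANGPTL4 and PDK4 also respond to low oxygen, so a list of 10 hypoxia genes was set beside them. With the combination 4 were higher and 1 lower, and with H3B-6527 2 were higher and 3 lower. The totals called were near the shares over all genes, 50.1% with the combination and 49.4% with H3B-6527. Of all genes, 24.8% were higher and 25.3% lower with the combination, and 25.2% and 24.3% with H3B-6527. With lenvatinib none of the 10 was called by edgeR, although 8 of them had an unadjusted p under 0.05, against 10.7% of all genes. The lenvatinib median was 0.86. DESeq2 called 5 of the 10 higher with lenvatinib, among them VEGFA (0.75), BNIP3 (0.60) and NDRG1 (2.12), edgeR without the filter on low counts 2 and the fit of only the groups compared 1. NDRG1, a hypoxia-induced gene, was higher by 3.18 ± 0.47 with the combination and 2.58 ± 0.46 with H3B-6527. BNIP3, a mitophagy receptor, was higher by 1.05 ± 0.12 with the combination and 0.67 ± 0.12 with H3B-6527, while the glucose transporter SLC2A1 was lower by −1.60 ± 0.33 and −2.45 ± 0.35. The part of low oxygen in the levels of ANGPTL4 and PDK4 was not tested. VEGFA, the endothelial growth factor gene, was higher with the combination (0.47 ± 0.14), a call lost without replicate 3 of vehicle (0.40) or replicate 1 of the combination (0.35), and at −0.26 ± 0.14 did not pass with H3B-6527. The oxygen-sensing hydroxylase EGLN3 and the carbonic anhydrase CA9 were lower with H3B-6527, by −1.47 ± 0.45 and −2.74 ± 0.87. Both lost that call without replicate 2 of vehicle (EGLN3 −0.71, CA9 −1.32) or replicate 1 of H3B-6527 (EGLN3 −1.39, CA9 −2.44), and CA9 also without replicate 2 of H3B-6527 (−2.32). The count of higher genes was 2 to 6 with the combination and 0 to 3 with lenvatinib on leaving out single libraries, with the upper values without vehicle replicate 2 and the low combination value without vehicle replicate 3 or combination replicate 1.

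Markers of other cell types were looked up as human symbols. Of 8 adipocyte markers, 5 averaged under 1 CPM, and the summed level was 41.4 to 62.9 CPM with the combination, 35.6 to 79.3 with H3B-6527, 9.84 to 13.9 with lenvatinib and 8.19 to 10.0 with vehicle. PLIN1 led that sum, while ADIPOQ, LEP, LPL, RETN and FABP4 were at or near 0 in all groups. CFD averaged 6.22 CPM with the combination, 4.74 with H3B-6527, 2.70 with lenvatinib and 2.30 with vehicle. CIDEC averaged 3.88, 4.16, 3.39 and 3.52 CPM in the same groups. Of the 3 adipocyte markers tested, 2 were higher than vehicle with the combination and 2 with H3B-6527, against 24.8% and 25.2% of all genes. Of 8 skeletal muscle markers, 6 averaged under 1 CPM, with sums of 5.94 to 12 with the combination, 3.94 to 14.9 with H3B-6527, 1.73 to 2.89 with lenvatinib and 2.71 to 3.06 with vehicle. That sum was mostly MYH4, which averaged 7.17 CPM with the combination, 6.99 with H3B-6527, 0.315 with lenvatinib and 0.272 with vehicle, while CKM averaged 0.798, 0.729, 1.11 and 1.59 CPM in the same groups. Of 8 fibroblast markers, 6 were under 1 CPM and the sums were 26.7 to 29.3 with the combination, 24.5 to 28.3 with H3B-6527, 60.1 to 72.8 with lenvatinib and 73.0 to 82.7 with vehicle, led by PDGFRA. Of 8 macrophage markers 5 averaged under 1 CPM, and the sums were 160 to 194 with the combination, 149 to 205 with H3B-6527, 177 to 184 with lenvatinib and 195 to 213 with vehicle. Behind these sums, CD68 averaged 158 CPM with the combination, 156 with H3B-6527, 100 with lenvatinib and 93.0 with vehicle, and LYZ 9.46 CPM with the combination, 9.50 with H3B-6527, 76.2 with lenvatinib and 107 with vehicle. Of 7 endothelial markers found, 6 were under 1 CPM, and the sums were 3.28 to 4.49 with the combination, 2.80 to 4.23 with H3B-6527, 2.03 to 3.26 with lenvatinib and 2.65 to 3.68 with vehicle. The part of adipocyte, muscle, fibroblast, macrophage and endothelial RNA in the 30 genes was not tested.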

How the data were processed

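The authors deposited 1 table for 12 tumors of estimated counts of reads per human gene symbol, left unscaled, as its header and values show; 40.3% of values were not whole. STAR, kallisto, GRCh37 and GRCm38 are named in the submitters' processing notes, without versions or roles, and the handling of mouse reads is not stated there. The samples are labelled as mouse. No human reference was used, so sequences, coordinates and lengths are not reported. Each library was run on 4 lanes, and the labels give no batch.

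Counts were rounded to whole numbers. Genes passing filterByExpr (minimum count 10, here 0.279 CPM), 15836 of 36292, entered 1 edgeR 4.0.16 fit (TMM, robust quasi-likelihood, 2-sided) of all 12 libraries in R 4.3.3. On simulated data the fit recovered 66% of 100 genes changed 2-fold and 90.9% of 99 changed 4-fold, with 9 false calls. Far fewer genes were changed there than were called here, so the simulation cannot speak for the TMM scaling of these data. P-values were adjusted by Benjamini-Hochberg per comparison. In the fit of all 12 libraries they set each difference against a spread between tumors that all 4 groups share. The groups were not equally spread. Chi-square per gene between 2 replicates was 48.54 to 152.46 with H3B-6527, against 7.86 to 18.36 with vehicle. It was 13.96 to 24.58 with lenvatinib and 14.08 to 41.29 with the combination. The shared spread does not follow this difference. Settings tried instead were DESeq2 1.42.0, limma-voom (limma 3.58.1), RLE size factors, library totals, no filter, a fit of only the groups compared, and leaving out each library. Exact binomial intervals came from scipy 1.17.1. Libraries carry no molecular identifiers. No pair of replicates agreed within sampling noise.

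The 30 genes and the lists were chosen with earlier results of these data known. Named from each list were the 4 genes with the smallest p in H3B-6527 minus vehicle and a few fixed by name (ACAT1, OXCT1, BDH2, SCP2, PPARA, PPARGC1A, FGF21, HNF4A, CYP4A11 and VEGFA); AACS, OXCT2, SLC16A1, SLC16A7, HMGCLL1, SLC25A17, ACSL4, PPARGC1B, PRKAA1, PPARG, LIPE, PLIN3, ACOT1 and CA9 were named after their values were seen. A few genes of these lists are not reported here and were left out of the lists' counts and medians.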

Additional observations from a re-analysis of the deposited data

How the results depend on the processing

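No paired analysis was possible because the labels give no replicate numbers and tie no mice across groups. With H3B-6527 against vehicle, 21 to 27 members were higher across all settings, 21 with library totals as the scale; that scale shifted the median of all genes by −0.11 with H3B-6527, −0.14 with the combination and −0.04 with lenvatinib, and moved the calls over all genes to 2923 higher and 5339 lower (combination), 3022 and 4960 (H3B-6527), both against vehicle, and to 2293 and 4349 (combination) and 2562 and 3989 (H3B-6527), both against lenvatinib. With lenvatinib against vehicle, DESeq2 called 2 members higher (BDH1 and CREB3L3) and the fit of only the groups compared 1 (ECI2). Over all genes DESeq2 called 128 higher and 117 lower, limma-voom 3 and 5. By edgeR these were 101 and 88 in the fit of only the groups compared. They were 28 and 13 without the filter on low counts, and 29 and 16 without H3B-6527 replicate 1. With the combination against vehicle, 1 member (PDK4) was lower by DESeq2, with library totals and in the fit of only the groups compared, and 0 to 1 on leaving out a library. Against lenvatinib it was 0 without the filter on low counts, and 0 to 1 on leaving out a library. The electron transfer median with the combination was 0.53 with library totals. The median of the regulators with H3B-6527 was 0.04 to 0.44 on leaving out a library. Values near 0 changed sign. With H3B-6527, PLIN2 was −0.01 with limma-voom, −0.12 with library totals and −0.00 without the filter, and −0.19 to 0.15 on leaving out a library; FABP1 was −0.15 without H3B-6527 replicate 2, and against lenvatinib −0.50 to 0.09 on leaving out a library. With lenvatinib, ACSL1 was −0.04 and DECR2 −0.00 with library totals; on leaving out a library ACSL1 ran from −0.13 to 0.16, PDK4 from −0.22 to 0.38, and DECR2 from −0.02 to 0.12. The cause of these changes was not tested. Uncalled members of combination minus H3B-6527 changed sign in 53 of 540 values and of the additivity test in 29 of 510. Depth limits ACADL, whose vehicle libraries hold 10 counts in all, and PDK4, with 118 counts over the H3B-6527 tumors.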
